A study of Mus musculus with 12 samples.

Results

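The mitosis and G2/M genes are 38 genes chosen by name, among them mitotic kinases, cyclins, kinesins and spindle and kinetochore genes, out of 23924 features tested on the arrays. They were followed in RAW264.7 cells, a mouse macrophage cell line, on 12 one-colour arrays, 3 in each of 4 groups. Cells received an siRNA against lincRNA-Tnfaip3, a long intergenic noncoding RNA, with LPS or without it, or a scrambled control siRNA with LPS or without it. The siRNA treatment lasted 24 h in all groups, and another 4 h of culture followed it, with E. coli LPS at 1 µg/ml in the stimulated groups. LPS, from the outer membrane of Gram-negative bacteria, activates macrophages through the receptor TLR4. The labels do not say whether the arrays of a group came from separate cultures, so the tests measure the spread between arrays, which may be technical. No probe carries the name of lincRNA-Tnfaip3, so the groups are named by the siRNA given and not by a measured loss of the RNA.

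A dividing cell builds up cyclins A and B late in its cycle. Their partner kinase CDK1 is switched on by CDC25 phosphatases and starts mitosis, in which Aurora and Polo kinases, kinesin motors and kinetochore proteins assemble the spindle and attach the chromosomes to it. The anaphase-promoting complex then destroys the cyclins and securin, the inhibitor of the separase that cuts the cohesin holding sister chromatids together. The genes of this programme are transcribed mainly in G2 and mitosis, so their RNA in a culture follows how many of its cells are dividing, and RAW264.7 cells proliferate in culture. In RNA from a whole culture, fewer cells in G2 or mitosis and less of these RNAs per cell cannot be told apart.

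Many promoters of this programme hold CCAAT boxes and a cell cycle homology region, or CHR, an element bound by the DREAM and MMB complexes. RefSeq promoter windows of 300 bases on GRCm38.p6 were matched for 31 of the 38 genes. Both strands were searched for CCAAT and for the CHR letters TTTGAA and TTCGAA. CHR letters stood in 74.2% of the 31 genes and in 21.7% of the 27025 genes of the table, and CCAAT in 74.2% and 41.1%. Both stood together in 64.5% of the mitosis genes and in 8.61% of all genes. E2F letters (TTGGCGC, which can overlap a CCAAT box, or any of the variants TTCCCGC and TTCGCGC and TTGCCGC) stood in 12.9% and 10.9%. A match is a run of letters and not a bound site. The 280 bases of 5 promoters are shown with CHR and CCAAT letters of either strand in capitals, 3 of them for genes that passed the test described below, Kif11 for its large change, and Cdk1 for the kinase at the centre of the programme.
Cdc25b: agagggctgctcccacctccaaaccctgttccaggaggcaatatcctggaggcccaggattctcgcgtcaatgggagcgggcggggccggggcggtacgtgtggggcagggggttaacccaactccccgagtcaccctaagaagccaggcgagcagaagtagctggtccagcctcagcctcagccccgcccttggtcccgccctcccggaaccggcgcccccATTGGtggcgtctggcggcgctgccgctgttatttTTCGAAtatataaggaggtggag
Ccnb2: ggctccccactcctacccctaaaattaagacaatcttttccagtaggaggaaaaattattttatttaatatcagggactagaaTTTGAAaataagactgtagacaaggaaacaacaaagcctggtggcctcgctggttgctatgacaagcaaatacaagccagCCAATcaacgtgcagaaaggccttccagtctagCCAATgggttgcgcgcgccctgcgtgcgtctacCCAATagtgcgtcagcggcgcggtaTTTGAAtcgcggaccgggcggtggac
Aurka: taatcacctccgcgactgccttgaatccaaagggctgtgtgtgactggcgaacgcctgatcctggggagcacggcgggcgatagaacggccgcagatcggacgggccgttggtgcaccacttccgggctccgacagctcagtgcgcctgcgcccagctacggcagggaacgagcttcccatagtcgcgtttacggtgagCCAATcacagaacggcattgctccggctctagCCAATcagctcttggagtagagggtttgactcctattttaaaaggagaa
Kif11: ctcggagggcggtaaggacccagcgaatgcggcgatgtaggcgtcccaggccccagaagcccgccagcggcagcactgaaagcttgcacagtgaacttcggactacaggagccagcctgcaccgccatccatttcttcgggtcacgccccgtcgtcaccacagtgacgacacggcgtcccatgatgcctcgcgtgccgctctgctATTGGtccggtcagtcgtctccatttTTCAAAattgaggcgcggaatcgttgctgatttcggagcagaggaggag
Cdk1: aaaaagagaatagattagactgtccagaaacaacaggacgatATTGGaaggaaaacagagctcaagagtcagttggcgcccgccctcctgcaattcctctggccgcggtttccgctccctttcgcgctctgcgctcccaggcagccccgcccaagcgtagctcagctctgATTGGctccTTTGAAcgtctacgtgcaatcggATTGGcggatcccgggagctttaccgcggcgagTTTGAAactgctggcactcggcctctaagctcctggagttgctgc
The Cdc25b window (chr2:131186698-131186977, plus strand) had 1 CCAAT box, read as ATTGG, and 1 CHR at positions 8 to 13 after the annotated start. The Ccnb2 window (chr9:70421525-70421804, minus strand) had 3 CCAAT boxes, beginning at -87, -54 and -21, and CHR letters at -167 and 5. The Aurka window (chr2:172370541-172370820, minus strand) had CCAAT boxes at -51 and -19, and its CHR at 33 to 38 lies beyond the bases shown. Kif11 (chr19:37376132-37376411, plus strand) and Cdk1 (chr10:69352883-69353162, minus strand) also held both elements. These letters did not sort the genes by their LPS change, whose median averaged over both siRNAs was -0.18 in 23 genes with CHR letters and -0.23 in 8 without.

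All 38 genes were measured. They had 55 probes, of which 53 passed the filter on dim probes, and the probe used for each gene was well above background on all 12 arrays. Values are log2 signal relative to the array's 75th percentile, and levels are compared between arrays for the same probe only. The arrays came from 3 slides that hold the groups unequally. Slide 1 held unstimulated control-siRNA arrays 1 and 2, slide 3 held arrays 2 and 3 of LPS-stimulated lincRNA-siRNA cells, and slide 2 held the other 8. On slide 2, arrays of lincRNA-siRNA and control-siRNA cells also lay in different rows, so row and siRNA cannot be told apart there. Well above background were 27265 and 29540 probes on the slide 1 arrays and 32781 to 36442 on the others, and the 75th percentile of the signal was 311.9 to 477.7. Of the macrophage markers, 10 were well above background on all 12 arrays, among them Csf1r, Cd68 and Lyz2, and Mertk was on 1. Summed signals of 15 markers of other cell types were 1.80 to 5.67 times the 75th percentile and those of the macrophage markers 465.3 to 729.9 times it. Both sums moved with the groups. That of other cell types was 4.60 to 5.67 in stimulated and 3.81 to 4.30 in unstimulated lincRNA-siRNA cells. In control-siRNA cells it was 3.03 to 4.70 with LPS and 1.80 to 3.17 without. The macrophage sum was 648.3 to 729.9 in stimulated and 608.5 to 655.5 in unstimulated lincRNA-siRNA cells. In control-siRNA cells this sum was 565.2 to 604.6 with LPS and 465.3 to 540.6 without. Cd3e, a T cell gene, was above background on every array, whereas Cd3g was above it on 0, and the part of these markers in the results was not tested.

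In control-siRNA cells, RNA of the mitosis genes was lower with LPS. The change was below 0 for 37 of 38 genes, with a median log2 change of -0.29, against 0.06 over all 23924 features. A gene was called where its limma p, after Benjamini-Hochberg adjustment across all features, was under 0.05. By this test 4 genes fell (Aurkb, Cdc25b, Ccnb2 and Aurka) and 0 rose, where 1.89% of all features fell and 3.26% rose. The 3 stimulated arrays lay below all 3 unstimulated arrays for 25 of the 38 genes, where 15.3% of all features did so. The 12 genes of the LPS response list, such as Il6, Cxcl10 and Tnf, all rose (median 2.71), and 0 of 12 housekeeping genes passed (median 0.14).

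The calls rest on small margins. The count of 4 became 0 without unstimulated control-siRNA array 1, without its array 2, or without stimulated array 3, and 7 without unstimulated array 3. It was 1 without stimulated control-siRNA array 2, lincRNA-siRNA array 2 or lincRNA-siRNA array 3, and 2 without any 1 of the arrays of LPS-stimulated lincRNA-siRNA cells. It was also 0 in a fit blocked by slide. The median of the 38 genes was -0.29 in that fit and on slide 2 alone (all features -0.05). Slides 1 and 3 each held 1 group, so both fits take this change from slide 2 arrays and are not separate checks. On slide 2, where a single unstimulated control-siRNA array remains, 37 of 38 changes were below 0, as were 13571 of all 23924 features. All 3 stimulated control-siRNA arrays lay below that array for 32 genes, where 32.3% of all features did so.

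**Figure D1:**
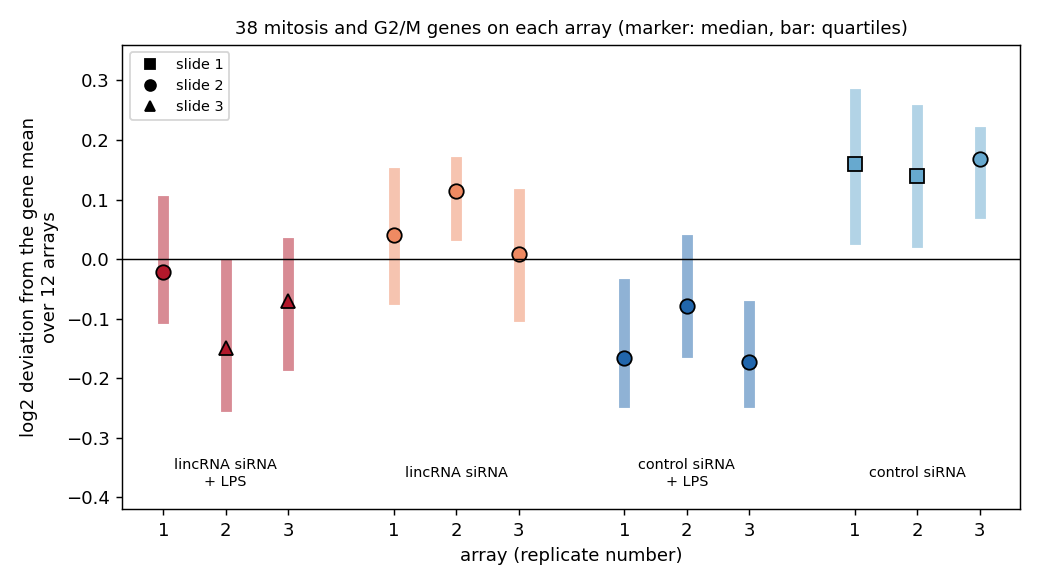
Median (marker) and quartiles (bar) of the 38 genes' log2 deviation from each gene's mean over 12 arrays, for the 3 arrays of each group. The stimulated control-siRNA medians lie between -0.173 and -0.079 and the unstimulated ones between 0.139 and 0.168.

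The same deviation, gene by gene, was summarised for each array. The median over the 38 genes was -0.166, -0.079 and -0.173 on the 3 LPS-stimulated control-siRNA arrays and 0.159, 0.139 and 0.168 on the 3 unstimulated ones. It was -0.021, -0.15 and -0.071 on the LPS-stimulated lincRNA-siRNA arrays and 0.04, 0.114 and 0.009 on the unstimulated ones. The groups did not overlap with either siRNA. The mean of the 2 unstimulated control-siRNA arrays from slide 1 was higher than the array on slide 2 for 19 genes and lower for 19, with a median difference of 0 (all features, -0.12). The difference was 0.93 for Aurkb, 0.40 for Kif11, 0.22 for Cdc25b and 0.12 for Ccnb2. It varied among other genes with LPS changes below 0. It was 0.23 for Bub1b, 0.09 for Ccnb1, 0.05 for Kif23 and Nuf2, and 0.04 for Aurka. For Kif20a it was -0.01, for Nusap1 -0.17 and for Foxm1 -0.19. The housekeeping genes' median deviation was -0.29 and -0.191 on the slide 1 arrays and 0.017 on that slide 2 array. The slide 3 arrays of stimulated lincRNA-siRNA cells were lower than the slide 2 array for 26 of 38 genes, with a median difference of -0.1.

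Of the 10 mitotic kinases and phosphatases, 3 fell with LPS in control-siRNA cells and all 10 changes were below 0 (median -0.33). Cdc25b encodes a phosphatase that activates cyclin-dependent kinases, and its probe lies at chr2:131023911-131023970 on mm9. It stood at 3.14, 3.21 and 3.19 on the LPS-stimulated control-siRNA arrays and at 3.76, 3.80 and 3.55 on the unstimulated ones. The arrays did not overlap, and unstimulated array 3, the one on slide 2, was nearest to the stimulated arrays. The change was -0.52 ± 0.096 (SE, n = 3 per group, adjusted p = 0.0128). On slide 2 alone it was -0.37 (adjusted p = 0.522). In lincRNA-siRNA cells Cdc25b stood at 3.23, 3.41 and 3.37 with LPS and at 3.47, 3.49 and 3.43 without, again with no overlap, and the change of -0.13 did not pass (adjusted p = 0.769).

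Aurka, the Aurora kinase of the spindle poles, stood at 4.81, 4.88 and 4.77 on the stimulated control-siRNA arrays and at 5.29, 5.15 and 5.18 on the unstimulated ones. All 3 stimulated arrays were lower, and the change was -0.39 ± 0.097 (adjusted p = 0.0497). In lincRNA-siRNA cells it stood at 5.02, 4.99 and 5.08 with LPS and at 4.99, 5.18 and 5.27 without. Those groups overlapped, and the change was -0.12 (adjusted p = 0.783). Slide 2 alone gave -0.36 in control-siRNA cells (adjusted p = 0.698).

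Aurkb, the Aurora kinase of the chromosomal passenger complex, had the largest change of the 38 genes, on a dim probe. It stood at -4.34, -4.38 and -4.12 on the stimulated control-siRNA arrays and at -2.84, -2.64 and -3.68 on the unstimulated ones. The change was -1.22 ± 0.29 (adjusted p = 0.0395). The groups did not overlap, but the unstimulated arrays from slide 1 were 0.93 higher on average than the one on slide 2, the largest such gap among the 38 genes, and on slide 2 alone the change was -0.60 (adjusted p = 0.579). In lincRNA-siRNA cells Aurkb stood at -3.78, -4.62 and -4.47 with LPS and at -3.70, -3.84 and -4.12 without. The 2 low stimulated arrays came from slide 3, the change was -0.40 (adjusted p = 0.751), and on slide 2 alone it was 0.11.

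The other kinases did not pass. Plk1, the Polo kinase that acts from mitotic entry to cytokinesis, stood at 5.26, 5.65 and 5.30 on the stimulated control-siRNA arrays and at 5.49, 5.56 and 5.52 on the unstimulated ones. One stimulated array was above all 3 unstimulated ones, and the change was -0.12 ± 0.16 (adjusted p = 0.667). Cdk1, the kinase that drives mitotic entry, stood at 3.11, 3.31 and 3.26 with LPS and at 3.32, 3.27 and 3.41 without in control-siRNA cells. These overlapped, with a change of -0.11 ± 0.12 (adjusted p = 0.618). The 2 other Cdk1 probes gave 0.28 and 0.35 (adjusted p = 0.617 and 0.462 when every probe was tested), so the 3 probes did not share a direction. Bub1, Bub1b, Ttk, Nek2 and Cdc25c, which act in the spindle checkpoint, centrosome separation and CDK activation, had changes from -0.40 (Bub1b) to -0.15 (Bub1).

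**Figure D2:**
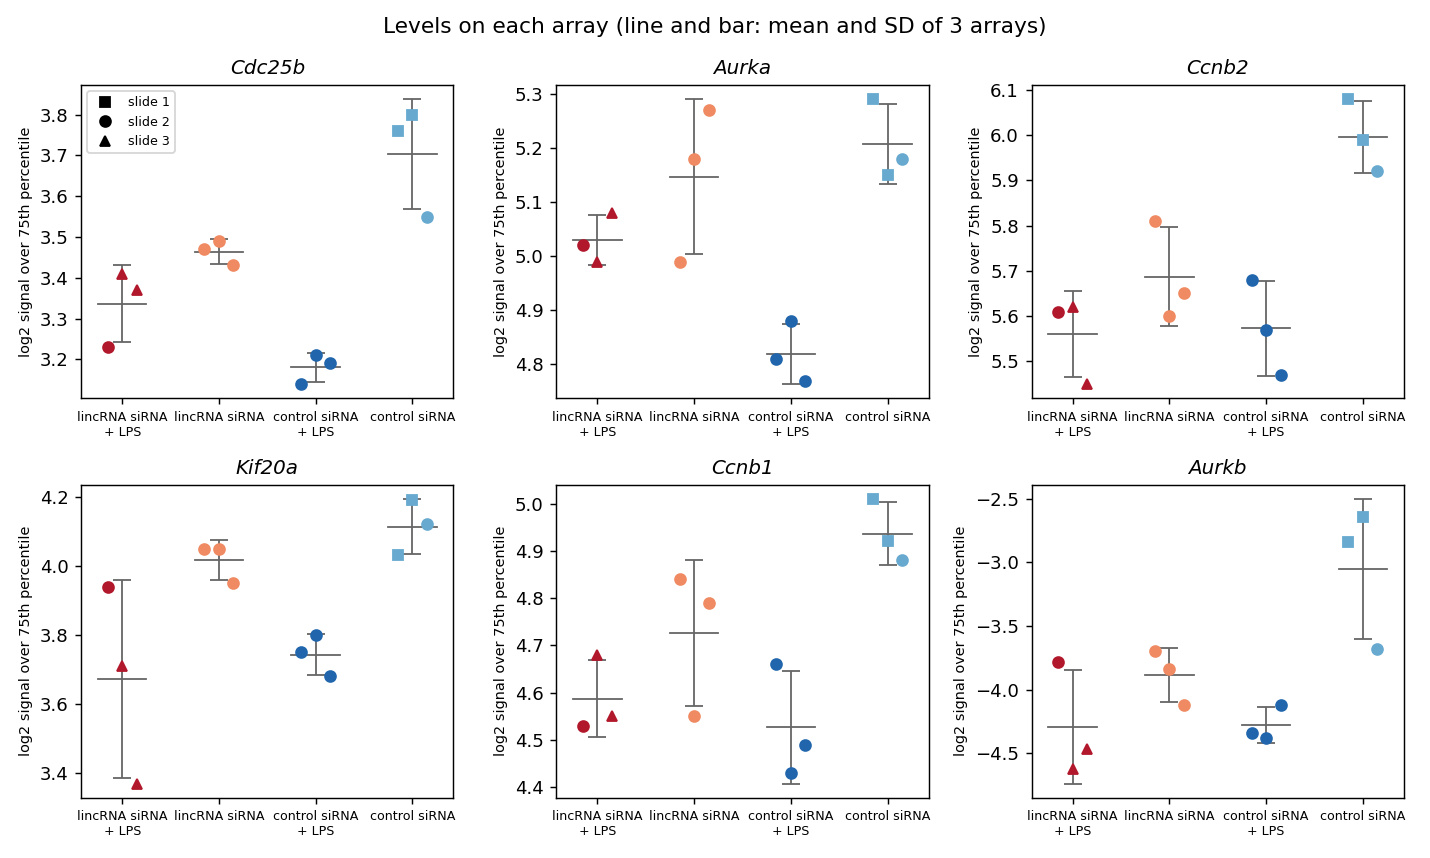
Levels of 6 mitosis genes (log2 signal over the array's 75th percentile) on each array, with the mean and SD of each group's 3 arrays and the slide as the marker shape. Stimulated and unstimulated control-siRNA arrays do not overlap for any of the 6 genes, and Aurkb shows the gap between slide 1 (-2.84 and -2.64) and slide 2 (-3.68) in unstimulated control-siRNA cells.

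All 4 genes for cyclins and transcription were lower on each stimulated control-siRNA array than on each unstimulated one (median change -0.38), and 1 of them, Ccnb2, passed. Ccnb2 encodes cyclin B2, and its probe lies at chr9:70255671-70255730 on mm9. It stood at 5.68, 5.57 and 5.47 with LPS and at 6.08, 5.99 and 5.92 without. The change was -0.43 ± 0.10 (adjusted p = 0.0413), and on slide 2 alone -0.35 (adjusted p = 0.709). In lincRNA-siRNA cells Ccnb2 stood at 5.61, 5.62 and 5.45 with LPS and at 5.81, 5.60 and 5.65 without. Those groups overlapped, and the change was -0.13 (adjusted p = 0.789).

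Ccnb1, cyclin B1, stood at 4.66, 4.43 and 4.49 on the stimulated control-siRNA arrays and at 5.01, 4.92 and 4.88 on the unstimulated ones. The groups were apart, yet the change of -0.41 ± 0.11 did not pass (adjusted p = 0.0639). Its other probes gave -0.27 and -0.12, the same direction. Foxm1 encodes a transcription factor that activates G2/M genes. It stood at 2.18, 2.12 and 1.96 with LPS and at 2.25, 2.51 and 2.57 without, which did not overlap, and the change was -0.36 ± 0.11 (adjusted p = 0.110). Ccna2, cyclin A2, changed by -0.29 ± 0.11 (adjusted p = 0.154).

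The 8 motor and spindle genes were all lower on each stimulated control-siRNA array than on each unstimulated one (median -0.35), and 0 of them passed in that comparison. Kif11, the kinesin that pushes spindle poles apart, stood at 1.22, 1.14 and 0.83 with LPS and at 1.74, 1.80 and 1.37 without. Unstimulated array 3, the one on slide 2, lay nearest to the stimulated arrays. The change was -0.58 ± 0.17 (adjusted p = 0.0790), and on slide 2 alone -0.31. Kif20a, a kinesin of the central spindle, stood at 3.75, 3.80 and 3.68 with LPS and at 4.03, 4.19 and 4.12 without, with a change of -0.37 ± 0.13 (adjusted p = 0.144). In lincRNA-siRNA cells Kif20a stood at 3.94, 3.71 and 3.37 with LPS and at 4.05, 4.05 and 3.95 without. The single slide 2 array of that stimulated group was the highest of its 3, and the change was -0.34 (adjusted p = 0.402). Kif23, Prc1, Nusap1, Kif4, Kif2c and Tpx2, which act on spindle microtubules, changed by -0.43 (Kif23) to -0.12 (Tpx2) in control-siRNA cells.

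Of the 7 chromosomal passenger and kinetochore genes, 6 had changes below 0 (median -0.27 in control-siRNA cells, 0 of 7 passed). Ndc80, which links kinetochores to microtubules, stood at 0.53, 0.67 and 0.76 with LPS and at 1.20, 1.01 and 0.93 without in control-siRNA cells. These did not overlap, and the change was -0.39 ± 0.12 (adjusted p = 0.0952). In lincRNA-siRNA cells Ndc80 stood at 0.77, 1.03 and 0.89 with LPS and at 0.77, 0.82 and 1.02 without, and the change was 0.03. Incenp, the scaffold of the passenger complex, stood at 5.87, 6.10 and 6.03 with LPS and at 6.26, 6.17 and 6.40 without in control-siRNA cells. Its changes were close with the 2 siRNAs, -0.27 (adjusted p = 0.504) with the lincRNA siRNA and -0.28 (adjusted p = 0.205) with the control siRNA. Birc5, or survivin, another subunit of that complex, changed by -0.13 in both on the probe used. Its other probes gave -0.24 and -0.22 in control-siRNA cells and -0.03 and -0.07 in lincRNA-siRNA cells. Cenpa, the centromeric histone, changed by -0.27 and Nuf2, a partner of Ndc80, by -0.42 in control-siRNA cells.

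The kinetochore protein Cenpf, on a dim probe, was the 1 gene of the 38 with a change above 0 in control-siRNA cells (0.05, adjusted p = 0.843). It stood at -3.30, -2.91 and -3.37 with LPS and at -3.17, -3.24 and -3.32 without. The groups overlapped.

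None of the 5 checkpoint, APC/C and separation genes passed (median -0.12 in control-siRNA cells). Cdc20, an activator of the anaphase-promoting complex, was at 5.62, 5.67 and 5.67 with LPS and at 5.84, 5.89 and 5.82 without, which did not overlap (-0.20, adjusted p = 0.216). Mad2l1, a spindle checkpoint protein, changed by -0.35, Ube2c, the ubiquitin-conjugating enzyme of that complex, by -0.12, and Espl1, the separase, by -0.11. Securin, Pttg1, changed by -0.01, and its second probe gave 0.14.

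Nor did any of the 4 cytokinesis and chromosome genes (median -0.20). Mki67, which encodes the proliferation antigen Ki-67, stood at 5.99, 6.24 and 5.96 on the stimulated control-siRNA arrays and at 6.07, 5.98 and 6.17 on the unstimulated ones. The stimulated group held both the highest and the lowest value, and the change was -0.01 ± 0.13 (adjusted p = 0.971), with 0.02 from a second probe. Top2a, the topoisomerase that untangles chromosomes, was at 3.65, 3.87 and 3.57 with LPS and at 3.77, 3.92 and 3.88 without, a change of -0.16 ± 0.11 (adjusted p = 0.382). Ect2, which triggers the cleavage furrow, changed by -0.34 and the furrow protein Anln by -0.23. Of the 11 genes with several probes that passed the filter, Cdk1, Mki67 and Pttg1 were the 3 whose probes differed in sign.

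In lincRNA-siRNA cells 0 of the 38 genes passed for LPS, where 1.86% of all features did, and 1 gene had an unadjusted p under 0.05, where 10.2% of all features had one. The changes were below 0 for 31 genes, with a median of -0.13 (all features -0.01). On slide 2 alone they were below 0 for 24 genes and for 11926 of all 23924 features, with medians of -0.08 and 0. Stimulated arrays lay below all unstimulated ones for 5 genes, where 7.49% of all features did so. The LPS response list again rose in full (12 of 12, median 2.30). For 37 of 38 genes the 95% interval of the change lay within a 2-fold change in either direction, Aurkb being the exception (lower bound -1.04).

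**Figure D3:**
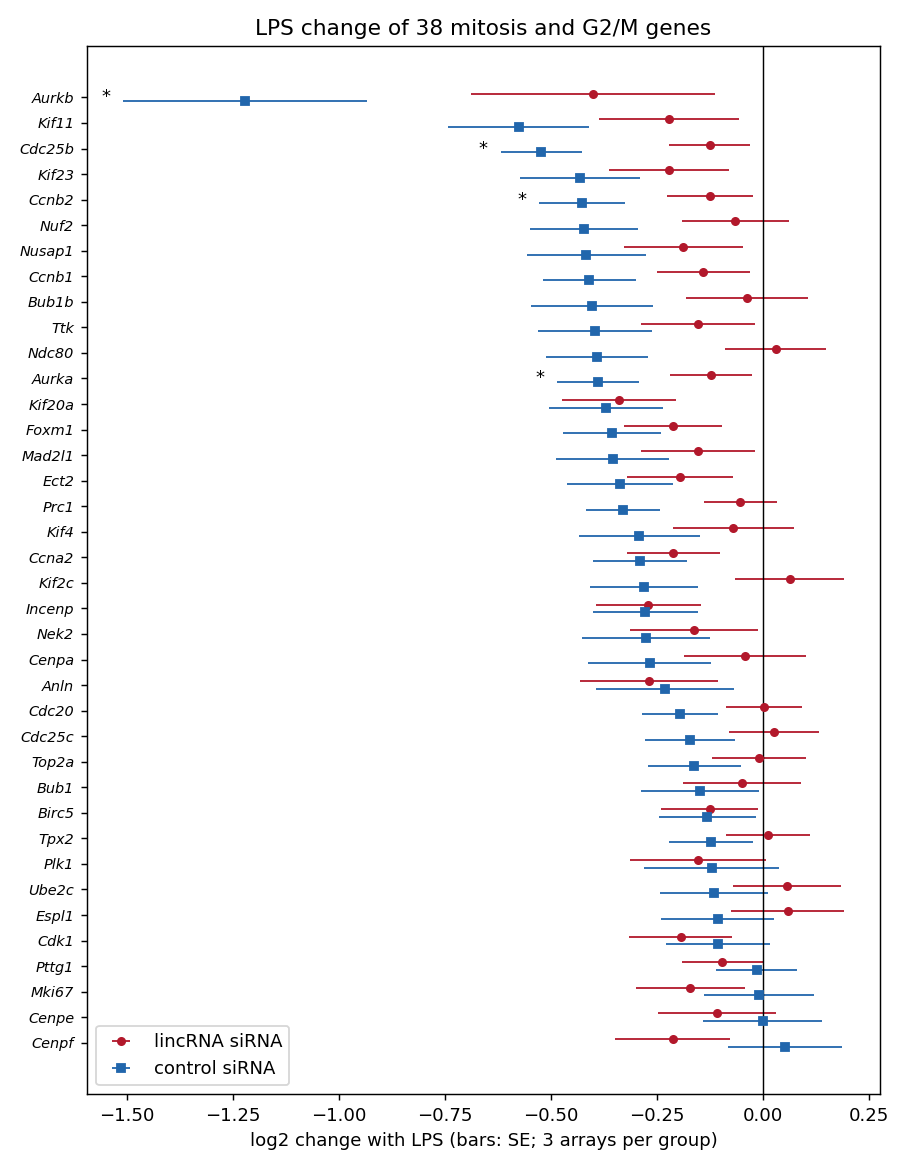
Log2 change with LPS (x axis, SE as bars, 3 arrays per group) of each of the 38 genes, with the lincRNA siRNA (circles) and the control siRNA (squares). Stars mark the 4 genes that passed in control-siRNA cells, and 31 of the 38 genes have a lower value with the control siRNA than with the lincRNA siRNA.

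Whether the LPS change differed between the 2 siRNAs was tested as an interaction. The change was lower in control-siRNA cells for 31 of 38 genes, and the median interaction was 0.18 (all features -0.04), but 0 of the 38 genes passed, as did 0 of all 23924 features. At an unadjusted p under 0.05 there were 3 genes, Cdc25b (0.40 ± 0.14), Ndc80 (0.42 ± 0.17) and Prc1 (0.28 ± 0.12), each with an adjusted p of 0.891, and 3.75% of all features had such an unadjusted p. For Aurkb the interaction was 0.82 ± 0.41 (adjusted p = 0.891). The 95% intervals of the 37 genes other than Aurkb ran from -0.69 to 0.88, within a 2-fold difference in either direction, and that of Aurkb reached 1.73. On slide 2 alone, unstimulated control-siRNA and stimulated lincRNA-siRNA cells have 1 array each. The median interaction there was 0.22, against 0.06 over all features, with 3 of 38 genes and 9765 of 23924 features below 0.

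Averaged over both siRNAs, 5 genes fell with LPS and 0 rose, where 4% of all features fell and 4.21% rose. All 38 changes were below 0, with a median of -0.21 (all features 0.03). The 5 genes were Aurkb (-0.81 ± 0.20, adjusted p = 0.0377), Cdc25b (-0.32 ± 0.068, adjusted p = 0.0168), Ccnb2 (-0.28 ± 0.072, adjusted p = 0.0437), Aurka (-0.26 ± 0.068, adjusted p = 0.0492) and Kif20a (-0.35 ± 0.095, adjusted p = 0.0499). Kif11 missed the threshold (-0.40 ± 0.12, adjusted p = 0.0678). On slide 2 alone 35 of 38 changes were below 0, as were 12931 of 23924 features, with medians of -0.18 and -0.02. Aurkb was -0.25 and Kif20a -0.22 there. The count fell to 0 without unstimulated control-siRNA array 2, to 2 without its array 1, and to 1 to 3 without stimulated control-siRNA arrays 2 or 3 or any 1 lincRNA-siRNA array of either group. Over all features, leaving out 1 array gave 1214 to 3675 calls, against 1965.

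**Figure D4:**
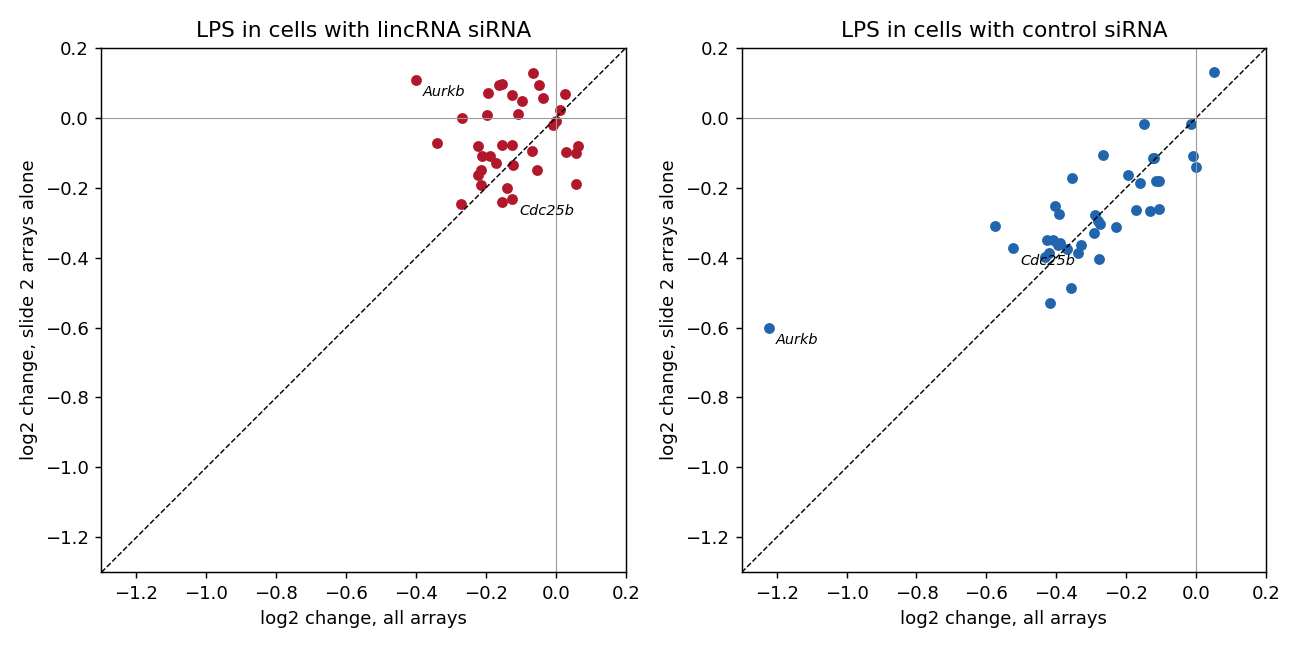
Log2 change with LPS from all arrays (x axis) and from slide 2 arrays alone (y axis) for the 38 genes, with the lincRNA siRNA and with the control siRNA; the dashed line marks equal values. In control-siRNA cells 37 genes are below 0 on both axes, with Aurkb at -1.22 and -0.60, and in lincRNA-siRNA cells 24 genes are below 0 on slide 2 alone.

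Between the siRNAs, 0 of 38 genes passed in LPS-stimulated cells or in unstimulated cells, as did 0 of 23924 features in each comparison. In stimulated cells the median was 0.04 (all features 0.02) and 0 of the 38 genes had an unadjusted p under 0.05, where 4.63% of all features had one. On slide 2, where a single stimulated lincRNA-siRNA array remains, the median was 0.15 (all features 0.04). There 8 changes were below 0, as were 10385 of 23924 features. That array lay above all 3 stimulated control-siRNA arrays for 19 genes (30.6% of all features) and below them for 2 (22.2%). On all arrays, the lincRNA-siRNA arrays lay above all control-siRNA arrays for 4 genes, Aurka, Cdc20, Cdc25b and Ndc80, where 7.13% of all features did so. The intervals ran from -0.65 to 0.63 over the 38 genes, all within a 2-fold change. In unstimulated cells the median was -0.12 (all features 0.07), and lincRNA-siRNA arrays lay below all control-siRNA arrays for 9 genes (9.2% of all features) and above them for 3 (12.2%). At an unadjusted p under 0.05 there were 7 genes, where 18.5% of all features had one, but the directions differed. Aurkb, Ccnb2, Cdc25b, Kif11, Nuf2 and Prc1 were lower and Cenpf higher, whereas 1406 of the 23924 features were lower and 3028 higher. Without unstimulated control-siRNA array 3, 2 of the 38 genes (Aurkb and Kif11) passed in this comparison, where 10.9% of all features did. That fit sets control-siRNA arrays from slide 1 against lincRNA-siRNA arrays from slide 2, so slide and siRNA cannot be told apart in it.

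The largest difference without LPS was that of Aurkb (-0.83 ± 0.29, adjusted p = 0.222), which was -0.21 on slide 2 alone. Nuf2 differed by -0.35 (adjusted p = 0.226) and Bub1b by -0.32 (adjusted p = 0.276). Ccnb2 stood at 5.81, 5.60 and 5.65 in lincRNA-siRNA cells and at 6.08, 5.99 and 5.92 in control-siRNA cells, a difference of -0.31 ± 0.10 (adjusted p = 0.219) with no overlap. Cenpf stood at -2.87, -2.69 and -2.92 in lincRNA-siRNA cells and at -3.17, -3.24 and -3.32 in control-siRNA cells, the largest positive difference (0.42 ± 0.13, adjusted p = 0.218). Kif11 was at 1.44, 1.00 and 1.05 in lincRNA-siRNA cells and at 1.74, 1.80 and 1.37 in control-siRNA cells (-0.48 ± 0.17, adjusted p = 0.221), and -0.21 on slide 2 alone. Averaged over both LPS states the siRNA gave 0 calls among the 38 genes (0.155% of all features), with a median of -0.04 (all features 0.05) and 5 genes at an unadjusted p under 0.05, where 17.3% of all features had one.

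Other cell cycle genes were read from lists that share no member with the 38. Of 45 other mitosis genes tested, 3 fell with LPS in control-siRNA cells and 0 rose (median -0.19), where 1.89% of all features fell and 3.26% rose. They were Wee1, the kinase that holds CDK1 inactive (-0.58, adjusted p = 0.00887), Cdca2, a phosphatase regulator of mitotic chromatin (-0.48, adjusted p = 0.0302), and the condensin subunit Ncapd2 (-0.44, adjusted p = 0.0373). Kif18a, a kinesin that acts on chromosome alignment, had the largest change of the list but did not pass (-0.64, adjusted p = 0.0625). In lincRNA-siRNA cells Wee1 was the 1 gene of the 45 that fell (-0.55, adjusted p = 0.0217), where 83 of all 23924 features fell and 361 rose. The next largest change there, of the anaphase-promoting complex inhibitor Fbxo5, did not pass (-0.48, adjusted p = 0.160). With slide in the model 0 of the 45 genes passed with either siRNA alone. Averaged over both siRNAs 5 fell, led by Wee1, Kif18a, Fbxo5 and Cdca2, where 8.21% of all features passed, and Wee1 was the 1 gene that also passed with slide in the model (-0.56, adjusted p = 0.0390).

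Of 37 genes of G1/S and DNA replication tested, 1 rose and 3 fell in control-siRNA cells (median -0.17). Of all features, 3.26% rose and 1.89% fell. Ccnd2, cyclin D2, rose (1.32, adjusted p = 0.00313). The transcription factor E2f2 (-0.66, adjusted p = 0.0358), the replication licensing inhibitor Gmnn (-0.57, adjusted p = 0.0474) and the kinase Cdk2 (-0.52, adjusted p = 0.0272) fell. In lincRNA-siRNA cells 0 of the 37 passed, where 1.86% of all features did. The largest changes there were those of Ccnd2 (0.65, adjusted p = 0.171) and E2f2 (-0.60, adjusted p = 0.105). Averaged over both siRNAs Ccnd2 rose and E2f2, Gmnn and Chaf1b fell, where 4.21% of all features rose and 4% fell. With slide in the model 0 genes of this list passed in any of these comparisons. CHR letters stood in 20.7% and E2F letters in 62.1% of 29 of these genes with promoter windows, and CHR letters in 58.3% of 36 other mitosis genes.

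Among 20 CDK inhibitor and growth arrest genes tested, 4 rose and 2 fell with LPS in control-siRNA cells. Of all features, 3.26% rose and 1.89% fell. The stress-response gene Gadd45a rose by 2.48 (adjusted p = 0.000104), Gadd45b by 1.34 (adjusted p = 0.000236), Gadd45g by 1.03 (adjusted p = 0.0248) and the kinase gene Plk2 by 1.12 (adjusted p = 0.00230). Cdkn1b, which encodes the CDK inhibitor p27, fell (-0.66, adjusted p = 0.00146), as did Cdkn2c, which encodes p18 (-0.44, adjusted p = 0.0368). In lincRNA-siRNA cells 4 rose, namely Gadd45a (1.89), Gadd45b (1.12), Plk2 (0.71) and Cdkn1a, which encodes p21 (0.56). Cdkn1b fell there (-0.44, adjusted p = 0.0254), where 1.86% of all features passed in either direction. Sesn1 had the largest change in control-siRNA cells and did not pass (-2.91, adjusted p = 0.241). The slide-blocked fit called 3 genes of this list in lincRNA-siRNA cells and 4 in control-siRNA cells, where it called 159 and 234 of all 23924 features. Averaged over both siRNAs 5 genes of the list rose and 3 fell, where 4.21% of all features rose and 4% fell. Between the siRNAs 0 genes of these 3 lists passed, with LPS or without it.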

How the data were processed

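RNA of 12 RAW264.7 samples was labelled with Cy3 and hybridised to 1-colour Agilent arrays. Per the file headers, the deposited intensity values were background-subtracted and detrended by Feature Extraction 10.7.1.1, with probe positions on mm9; the submitters' processing notes name the same software. The authors' deposited log2 value table, whose columns share a median of 4.748, was an alternative only; how it was normalized is not known here.

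Spots flagged as outliers were left out (104 to 258 per array), and spots of 1 probe were averaged. The 75th percentile of each array was subtracted from its log2 intensities. Probes well above background on all 3 arrays of a group were kept (33171 of 55681, 59.6%), and the brightest probe stood for a gene. Symbols were updated for 26582 probes through RefSeq accessions (GRCm38.p6). A linear model with 4 group means took in all 12 arrays (limma 3.58.1, R 4.3.3, 8 residual degrees of freedom), p-values were adjusted over 23924 features at 0.05, and intervals are 95%. The code was tested on simulated data. The slide block and slide 2 alone were fitted beside it. The number of arrays limits precision.

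The 38 genes and the other lists were chosen with earlier results of these data known. Named genes were those called in any contrast, the 3 largest changes per contrast, and Aurkb, Plk1, Cdk1, Ccnb1, Foxm1, Mki67 and Top2a; other genes are given by their change or as examples of a role and were chosen after their values were seen. From other lists up to 4 called genes and the 2 largest changes per LPS contrast were named.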

Additional observations from a re-analysis of the deposited data

How the results depend on the processing

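Of 916 values of single genes recomputed under the alternatives, 740 kept direction and side of the threshold, 143 lost and 19 gained a call, and 14 changed sign. The count of 4 genes called for LPS in control-siRNA cells was 1 with normexp, no filter, slide as a random block or without slide 3 arrays, 2 with the percentile over detected probes, 11 with median centring, 15 with array weights, and 0 with the slide block, slide 2 alone, only the groups compared or without slide 1 arrays; leaving out each array gave 0 to 7. The count of 5 for LPS averaged over both siRNAs was 11 with median centring, 13 with array weights, 8 for probes detected on all arrays, 3 with the percentile over detected probes, 2 with each probe tested, 1 with the random block, and 0 with no filter, the slide block, slide 2 alone or without slide 1 or slide 3 arrays; leaving out each array gave 0 to 6. The count of 0 for the lincRNA siRNA without LPS was 6 with array weights and 0 to 2 with each array left out. Without unstimulated control-siRNA array 3 it was 2, and slide and siRNA cannot be told apart in that fit. Array weights and median centring also raised the calls over all features for LPS in control-siRNA cells, to 6380 and 1444 against 1232. Counts from these 2 alternatives are therefore not read as a trait of the 38 genes. The alternatives without the slide 1 or slide 3 arrays were chosen after seeing the data. Replicate numbers were not taken as pairs. Between groups, same-number correlations ran from -0.3 to 0.469 (median 0.0886) and other-number ones from -0.466 to 0.469 (median 0.0167), which does not settle pairing. The replicate block gave 3 and 5 LPS calls. Cdc25b kept its call in 22 of 29 alternatives in control-siRNA cells, Aurkb in 13, Ccnb2 in 12 and Aurka in 6. The median of the 38 genes stayed between -0.55 and -0.25 there. Median centring moved the median of all features to -0.21, against 0.06, the 38 genes' median to -0.55, and the calls over all features to 480 higher of 1444, against 781 higher of 1232. All-feature calls for LPS in control-siRNA cells were 234 with the slide block, 44 on slide 2 alone, 6380 with array weights and 538 to 3983 with an array left out. Leaving out an array also gave up to 2613 calls over all features for the lincRNA siRNA without LPS, 359 for the interaction and 1618 for the siRNA averaged over LPS states, against 0, 0 and 37. Changes near 0 turned sign: Cdk1 in control-siRNA cells with the mean of its probes (0.175); Mki67 there with normexp (0.00998), the percentile over detected probes (0.0226), the mean of probes (0.00484), array weights (0.0742) or without an array (from -0.098 to 0.0403, above 0 without unstimulated array 3 or stimulated array 1 or 3); Aurkb for LPS in lincRNA-siRNA cells with normexp (0.025), and with the slide block, slide 2 alone or no slide 3 arrays (0.108), and for the siRNA averaged over LPS states with the slide block or slide 2 alone (0.145). The causes were not tested. With 3 arrays per group and slides that hold single groups, changes of the size seen here lie at the limit of what the test calls.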
